A study of Mus musculus with 6 samples.

Results

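Chemokines are small secreted or membrane-bound proteins that guide the movement of cells, and the 8 described here are the genes Cxcl9, Cxcl10, Ccl5, Cxcl16, Cxcl13, Cxcl12, Cxcl14 and Cx3cl1. They were found by symbol in a table of 56941 gene identifiers, and all 8 were among the 19354 genes with enough counts to be tested. RNA sequencing was done on ventral hippocampus from 3 mice labelled NEGR1_overexpression and 3 mice labelled NEGR1_control. NEGR1 is an adhesion molecule of neuronal membranes, and the study asked about its part in memory and in anxiety- and depression-like behaviour. The sources used here do not give the strain, age or sex of the mice, or the vector, promoter or allele used to raise NEGR1.

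The genes were divided by what is known of them into 5 inducible chemokines (Cxcl9, Cxcl10, Ccl5, Cxcl16 and Cxcl13) and 3 constitutive ones of the brain (Cxcl12, Cxcl14 and Cx3cl1). Interferon-gamma, made mainly by T cells and natural killer cells, switches on Cxcl9 and Cxcl10, whose shared receptor CXCR3 draws activated T cells. Type I interferons and NF-kappaB signals also raise Cxcl10 and Ccl5. In the healthy brain Cx3cl1 is made by neurons and read by CX3CR1 on microglia, while Cxcl12 and its receptor CXCR4 guide neurons and progenitors during development and in the dentate gyrus. The set was chosen by gene family and by the fold changes and adjusted p-values of this same comparison, in which Cxcl9 was called. Differences of the 8 genes between the groups are therefore given as a description, and their p-values are not independent evidence.

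Promoter sequence from RefSeq (assembly GRCm38.p6) was at hand for 6 of the 8 genes. The 250 bases upstream of the start of transcription were searched on both strands for an interferon-stimulated response element (ISRE, GAAA and GAAA with any 2 bases between them), a gamma-activated site (GAS, TTCNNNGAA) and the NF-kappaB consensus. Over 32851 mouse promoters of the same length, 2.98% held the ISRE, 7.02% the GAS and 3.9% the NF-kappaB consensus. The windows below belong to the interferon-gamma chemokine Cxcl9, the interferon and NF-kappaB chemokine Cxcl10, and the constitutive Cxcl14 and Cx3cl1. They are printed 5′ to 3′ with motif matches in capitals.
Cxcl9 (chr5:92328080-92328329, minus strand): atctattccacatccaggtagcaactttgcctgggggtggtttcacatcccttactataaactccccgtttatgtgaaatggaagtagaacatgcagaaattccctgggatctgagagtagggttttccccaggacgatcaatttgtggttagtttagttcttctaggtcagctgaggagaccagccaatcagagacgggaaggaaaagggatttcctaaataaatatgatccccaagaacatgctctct
Cxcl10 (chr5:92348890-92349139, minus strand): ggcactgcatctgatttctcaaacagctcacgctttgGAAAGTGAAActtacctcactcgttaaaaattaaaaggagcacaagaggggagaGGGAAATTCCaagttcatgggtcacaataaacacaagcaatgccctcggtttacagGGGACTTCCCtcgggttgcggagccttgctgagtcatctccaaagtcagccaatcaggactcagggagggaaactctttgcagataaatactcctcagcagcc
Cxcl14 (chr13:56296552-56296801, minus strand): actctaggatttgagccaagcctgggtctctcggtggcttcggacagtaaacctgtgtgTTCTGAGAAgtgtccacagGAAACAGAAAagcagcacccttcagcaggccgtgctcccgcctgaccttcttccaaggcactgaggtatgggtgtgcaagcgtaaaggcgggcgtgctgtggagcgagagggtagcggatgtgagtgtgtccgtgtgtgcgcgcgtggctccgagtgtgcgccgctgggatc
Cx3cl1 (chr8:94771930-94772179, plus strand): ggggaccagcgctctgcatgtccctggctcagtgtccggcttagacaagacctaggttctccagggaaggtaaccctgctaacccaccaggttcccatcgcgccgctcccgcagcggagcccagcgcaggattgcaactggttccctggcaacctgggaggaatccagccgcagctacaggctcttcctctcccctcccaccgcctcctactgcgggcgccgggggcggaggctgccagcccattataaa
The first capitals in the Cxcl10 window are an ISRE, 213 to 204 bases upstream of the start, and the next 2 are NF-kappaB matches, at 159 to 150 and 103 to 94 bases upstream. In the Cxcl14 window the capitals are a GAS, 191 to 183 bases upstream, followed by an ISRE at 172 to 163 bases upstream. No match to the 3 patterns was found in the windows of Cxcl9, Cxcl13, Cxcl12 and Cx3cl1. The search allowed no mismatch, so sites that depart from these patterns would be missed, and no match does not mean no site. A match is a match of letters, and binding was not measured.

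In base composition the windows fell into separate ranges for inducible and constitutive genes. Cxcl9, Cxcl10 and Cxcl13 had GC contents of 44.4, 48.0 and 42.0% and 3, 5 and 2 CpG dinucleotides. Cxcl12, Cxcl14 and Cx3cl1 had GC contents of 64.4, 59.6 and 64.8% and 14, 16 and 14 CpG dinucleotides. Over all promoters the median was 52.4% GC and 6 CpG dinucleotides, with 49.6% of promoters at 5 or fewer and 29.4% at 14 or more. In the gene order of RefSeq, Cxcl9 and Cxcl10 lay on either side of Art3 on chromosome 5, and Cx3cl1 lay between the chemokine genes Ccl22 and Ccl17 on chromosome 8.

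The 6 libraries held 30726110 to 38108394 counts, and the values below are CPM, the counts scaled to a common library size, after scaling with TMM factors. A list of 8 hippocampal neuron genes summed to 1069 to 1245 CPM in the overexpression group and 1091 to 1232 CPM in control libraries. All 6 libraries carry the same tissue label, so there was no other tissue to set this sum against and it does not test the label. Within that list overexpression library 1 differed from libraries 2 and 3 of its group, with Prox1, a dentate granule cell gene, at 68.2 CPM against 137 and 123.2 CPM, and Wfs1, a CA1 gene, at 127 CPM against 71.3 and 85.5 CPM. Negr1 was at 185, 199 and 195 CPM in overexpression libraries 1 to 3, against 181, 168 and 180 CPM in control libraries 1 to 3. The groups did not overlap, and Negr1 was not past the threshold in edgeR's test (log2 fold change 0.13 ± 0.054 SE, adjusted p = 0.488). Overexpression library 1 stood apart in 7 choroid plexus genes, which summed to 730 CPM there, with Ttr at 640 CPM. The sum was 47.1 and 68.3 CPM in overexpression libraries 2 and 3, and 23.9 to 48.1 CPM in control libraries. A fold above 1 was seen for 7 of the 7, against 50.4% of all genes. Every overexpression library was above every control library for 3 of them, against 7.07% of all genes tested. Among these, Clic6 was at 19.7, 2.60 and 3.86 CPM in overexpression libraries 1 to 3. Its control libraries 1 to 3 had 0.311, 0.984 and 0.295 CPM. EdgeR called 0 of the 7, DESeq2 2 and limma-voom 0.

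Of the 8 chemokine genes, 4 were higher in every overexpression library than in every control library, all of them inducible. Cx3cl1 was lower in every overexpression library, and 3 genes overlapped between the groups. Over all genes tested 7.07% had every overexpression library above every control library and 8.07% had every one below. The adjusted p was under 0.05 for 1 of the 8, Cxcl9, against 0.0465% of all genes tested, of which 0.0258% were higher and 0.0207% lower. A fold above 1 was seen for 7 of the 8, against 50.4% of all genes. Because this comparison entered the choice of genes, nothing is read from these counts.

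Cxcl9 (ENSMUSG00000029417), the chemokine most closely tied to interferon-gamma, had 41, 45 and 109 counts in overexpression libraries 1 to 3, against 6, 3 and 6 counts in control libraries 1 to 3. In CPM these were 1.22, 1.32 and 3.02 in overexpression, against 0.187, 0.0798 and 0.197 in control. The lowest overexpression library was 6.22 times the highest control library, and overexpression library 3 was the highest of all. The fold was 12.1 (95% interval 5.87 to 24.9), and the edgeR adjusted p was 0.0189. Ordered from the highest log2 fold change down, Cxcl9 was in position 6 of all genes tested. The adjusted p was 0.256 without control library 2 and 0.0847 without control library 3, and 0.0536 in limma-voom. Over the 13 alternatives it ran from 5.05e-17 to 0.256, and the log2 fold change from 3.05 to 3.82.

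Cxcl10 (ENSMUSG00000034855), which shares the receptor CXCR3 with Cxcl9 and answers to type I interferon as well, had 1.64, 6.55 and 5.94 CPM in overexpression libraries 1 to 3. Control libraries 1 to 3 had 0.841, 0.878 and 0.918 CPM. Overexpression library 1 lay closer to the controls than to the other two of its group, and the controls were close together, with an SD of 0.0386 CPM (n = 3). The fold was 5.35 (95% interval 2.10 to 13.7), and the edgeR adjusted p was 0.348. Without overexpression library 1, the library with the highest choroid plexus sum, the log2 fold change was 2.82 in place of 2.42 and the edgeR adjusted p was 1.67e-05. Over the 13 alternatives the adjusted p ran from 1.67e-05 to 0.756. On the opposite strand Art3 shares 133 of the 2252 exonic bases of Cxcl10, and the sources used here do not say whether counting used strand. Art3 was at 2.58 ± 0.230 CPM in the overexpression group and 2.49 ± 0.191 CPM in control libraries (SD, n = 3 each).

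Ccl5 (ENSMUSG00000035042), a ligand of CCR1 and CCR3 that attracts T cells and monocytes, had 0.686, 1.17 and 1.11 CPM in overexpression libraries 1 to 3. Control libraries 1 to 3 had 0.592, 0.372 and 0.590 CPM. The groups did not overlap, by a narrow gap, and overexpression library 1 was again the lowest of its group. The fold was 1.92 (95% interval 1.17 to 3.16), and the edgeR adjusted p was 0.423.

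Cxcl13 (ENSMUSG00000023078), the B cell attractant that binds CXCR5, had 1.10, 1.23 and 1.53 CPM in overexpression libraries 1 to 3, against 0.218, 0.160 and 0.557 CPM in control libraries 1 to 3. In counts these were 37, 42 and 55 in overexpression against 7, 6 and 17 in control. Control library 3 was the highest control, and here overexpression library 1 stood with the other two of its group. The fold was 4.2 (95% interval 2.32 to 7.61), and the edgeR adjusted p was 0.117. Without control library 3 the log2 fold change was 2.76 in place of 2.07, and over the 13 alternatives the adjusted p ran from 1.61e-05 to 0.447.

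Cxcl16 (ENSMUSG00000018920), a membrane-bound chemokine that is cleaved to a soluble form and binds CXCR6, had 2.12, 1.67 and 1.75 CPM in overexpression libraries 1 to 3. Control libraries 1 to 3 had 1.71, 1.62 and 1.84 CPM. The groups overlapped, and overexpression library 1 was the highest of the 6. The fold was 1.07 (95% interval 0.787 to 1.46), and the edgeR adjusted p was 0.922. Zmynd15, on the opposite strand, shares 552 of the 3021 exonic bases of Cxcl16. It was at 1.03 ± 0.413 CPM in the overexpression group and 1.07 ± 0.401 CPM in control libraries (SD, n = 3 each).

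**Figure D1:**
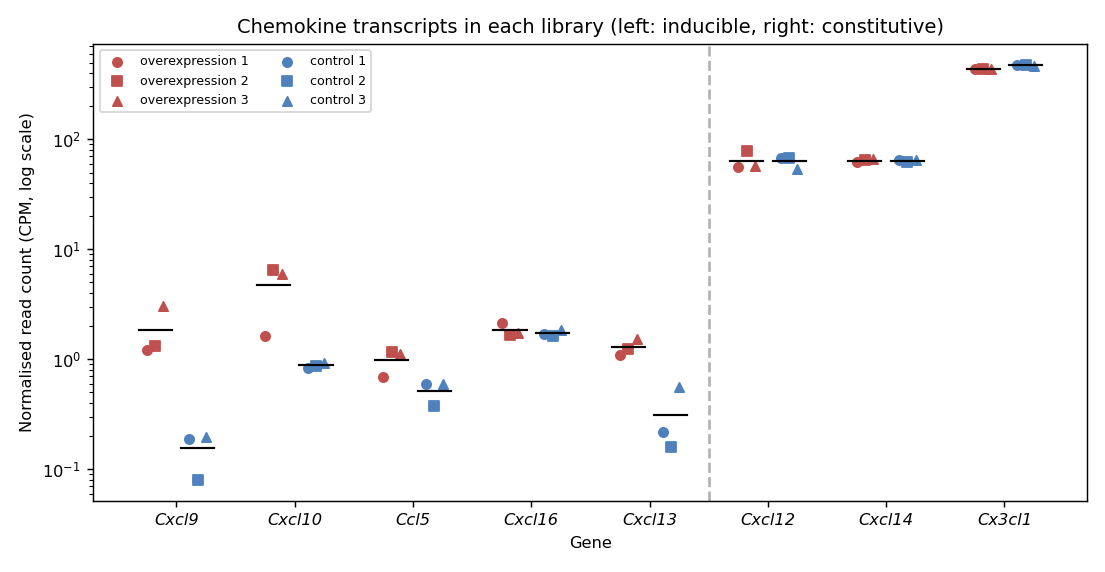
Normalised read count (CPM, log axis) of the 8 chemokine genes in each library, overexpression in red and control in blue. Symbols mark the replicate, and black lines are group means. Cxcl9, Cxcl10, Ccl5 and Cxcl13 are higher in all 3 overexpression libraries. Group means of Cxcl12 and Cxcl14 lie between 63.2 and 64.2 CPM, while single libraries of Cxcl12 run from 54.1 to 77.9 CPM.

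Folds of the 3 constitutive chemokines lay between 0.922 and 1.0. Cxcl14 (ENSMUSG00000021508), made in the hippocampus mainly by inhibitory interneurons, had 62.4, 64.5 and 65.8 CPM in overexpression libraries 1 to 3 and 65.0, 61.9 and 65.3 CPM in control libraries 1 to 3. The groups overlapped fully, with a fold of 1.0 and a 95% interval of 0.922 to 1.09 (edgeR adjusted p = 0.993). The Cxcl14 window held both an ISRE and a GAS by letter, as printed above.

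Cxcl12 (ENSMUSG00000061353), the ligand of CXCR4 and of the scavenging receptor ACKR3, had 55.5, 77.9 and 56.9 CPM in overexpression libraries 1 to 3 and 67.6, 68.0 and 54.1 CPM in control libraries 1 to 3. The groups overlapped, and overexpression library 2 was the highest of the 6. The fold was 1.0 with a wider 95% interval, 0.765 to 1.31 (edgeR adjusted p = 0.998), and the log2 fold change was -0.17 without overexpression library 2.

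Cx3cl1 (ENSMUSG00000031778), a membrane-tethered chemokine of neurons, had 436, 435 and 434 CPM in overexpression libraries 1 to 3 and 474, 478 and 465 CPM in control libraries 1 to 3. Each overexpression library was below each control library, and the spread within a group was small, with SDs of 1.31 and 6.67 CPM (n = 3 each). The fold was 0.922 (95% interval 0.860 to 0.987), with an edgeR adjusted p of 0.467. Over the 13 alternatives the log2 fold change was between -0.13 and -0.11. In RNA from bulk tissue, fewer cells that make a transcript and less of it in each cell cannot be told apart.

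**Figure D2:**
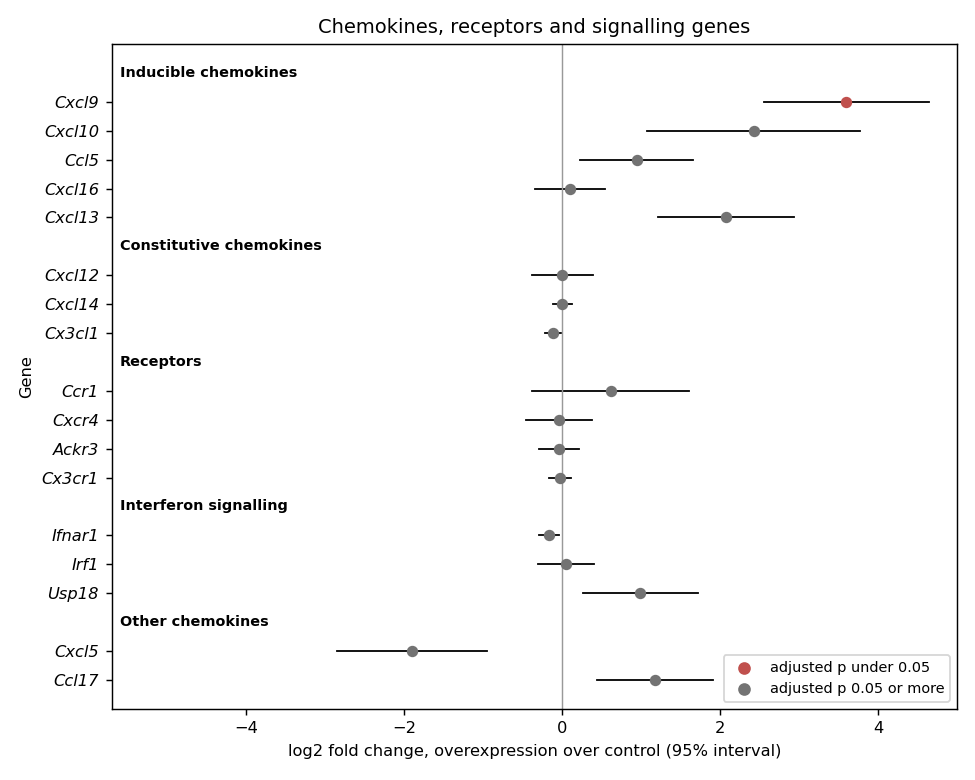
log2 fold change of overexpression over control with its 95% interval for the 8 chemokines, 4 cognate receptors, 3 interferon signalling genes and 2 other chemokines. Red marks an edgeR adjusted p under 0.05. The inducible chemokines other than Cxcl16 lie between 0.94 and 3.59, and the constitutive chemokines and receptors lie close to 0 except Ccr1, whose interval is wide.

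The median log2 fold change was 2.07 over the 5 inducible and 0.0030 over the 3 constitutive chemokines, beside 0.0015 over all genes tested. Summed over the 5 inducible genes, the level was 6.77, 11.9 and 13.3 CPM in overexpression libraries 1 to 3, against 3.55, 3.11 and 4.10 CPM in control libraries 1 to 3. Over the 3 constitutive genes the sum was 554, 578 and 556 CPM in the overexpression group and 607, 607 and 584 CPM in control libraries. The inducible sum was thus higher, and the constitutive sum lower, in each overexpression library than in each control library. Cx3cl1 made up 75.4 to 78.7% of the constitutive sum in overexpression and 78.1 to 79.6% in control libraries. Cxcl12 and Cxcl14 together were at 118 to 142 CPM in the overexpression group and 119 to 133 CPM in control libraries, which overlapped.

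Levels of different genes were compared per kilobase of the longest annotated transcript (CPM per kb). In overexpression libraries the order of mean levels was Cx3cl1 at 131 ± 0.396, Cxcl14 at 35.1 ± 0.939 and Cxcl12 at 11.3 ± 2.22 CPM per kb (SD, n = 3). Cxcl10 followed at 2.11 ± 1.2, then Ccl5 at 1.48 ± 0.395, Cxcl13 at 1.12 ± 0.189, Cxcl16 at 0.683 ± 0.0891 and Cxcl9 at 0.642 ± 0.351 CPM per kb. Neighbours from Cxcl10 down to Cxcl13, and Cxcl16 and Cxcl9, did not differ beyond their spread.

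In control libraries the constitutive genes stood in the same order, with Cx3cl1 at 142 ± 2.01, Cxcl14 at 35.1 ± 1.02 and Cxcl12 at 11.2 ± 1.41 CPM per kb. Below them Ccl5 was first, at 0.776 ± 0.189, then Cxcl16 at 0.639 ± 0.0398, Cxcl10 at 0.394 ± 0.0173, Cxcl13 at 0.271 ± 0.187 and Cxcl9 at 0.0535 ± 0.0224 CPM per kb. Ccl5 and Cxcl16 did not differ beyond their spread, nor did Cxcl10 and Cxcl13. The choice of transcript moved these levels: per kilobase of the median transcript length Cx3cl1 was at 934 in the overexpression group and 1013 in control libraries. On that scale Cxcl9, at 1.14 ± 0.622, stood above Cxcl13 and Cxcl16, at 1.12 ± 0.189 and 1.11 ± 0.145, in overexpression libraries (SD, n = 3). In control libraries Cxcl16, at 1.04 ± 0.0646, stood above Ccl5, at 0.863 ± 0.210. Neither change of order went beyond the spread. Per length of the longest transcript, the inducible sum was 2.24, 3.78 and 4.15% of the constitutive sum in overexpression libraries 1 to 3, against 1.13, 0.904 and 1.36% in control libraries 1 to 3.

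The receptors of the 8 chemokines were read from the same libraries. Of 11 cognate receptor genes 7 had enough counts to be tested, and edgeR called 0 of them, with 0 at an unadjusted p under 0.05 and 0 called by DESeq2 or limma-voom. Their median log2 fold change was -0.028. Cxcr3, the receptor of Cxcl9 and Cxcl10, was too low to be tested, with 8, 2 and 4 counts in overexpression libraries 1 to 3 and 3, 4 and 4 counts in control libraries 1 to 3. Cxcr5, the receptor of Cxcl13, had 3 counts in overexpression and 2 in control libraries together. Cxcr6, the receptor of Cxcl16, averaged 0.315 ± 0.139 CPM in the overexpression group and 0.314 ± 0.0742 CPM in control libraries (SD, n = 3 each).

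Receptors of the resident cells were measured more precisely. Cx3cr1, the microglial receptor of Cx3cl1, had 44.5, 44.4 and 48.6 CPM in overexpression libraries 1 to 3 and 44.1, 49.8 and 46.2 CPM in control libraries 1 to 3. Its groups overlapped, with an edgeR adjusted p of 0.931. Cxcr4 averaged 2.11 ± 0.255 CPM in the overexpression group and 2.16 ± 0.103 CPM in control libraries (SD, n = 3 each; edgeR adjusted p = 0.976). Ackr3 averaged 12.1 ± 1.72 CPM in the overexpression group and 12.5 ± 1.19 CPM in control libraries (SD, n = 3 each; edgeR adjusted p = 0.945). The signs of the Cx3cr1, Cxcr4 and Ackr3 differences changed when single libraries were left out. Ccr1, a receptor of Ccl5, had a log2 fold change of 0.61 ± 0.46 (SE), with an edgeR adjusted p of 0.722.

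The interferons themselves were at or near 0 counts. Ifng had 0 counts in each of the 6 libraries, which allows up to 0.0787 to 0.0976 CPM, taking 3 counts of a library's total as the limit that a count of 0 allows. Ifnb1 had 1 count, in overexpression library 1. These limits cover counting error only. Of 25 genes for interferons, their receptors and signalling, 19 could be tested; edgeR called 0, with 3 at an unadjusted p under 0.05, and DESeq2 and limma-voom called 0. Over all genes tested, 9.24% had an unadjusted p under 0.05 in either direction. Irf1, a transcription factor that interferon induces, averaged 7.95 ± 1.89 CPM in the overexpression group and 7.69 ± 0.852 CPM in control libraries (SD, n = 3 each; edgeR adjusted p = 0.961), and its sign changed when single libraries were left out.

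In that list the smallest p-values belonged to Usp18 and Ifnar1. Usp18, a brake on type I interferon signalling that interferon induces, averaged 3.04 ± 1.09 CPM in the overexpression group and 1.54 ± 0.674 CPM in control libraries (SD, n = 3 each; edgeR adjusted p = 0.423). Ifnar1, a chain of the type I interferon receptor, averaged 46.3 ± 2.5 CPM in the overexpression group and 51.9 ± 1.23 CPM in control libraries (SD, n = 3 each; edgeR adjusted p = 0.431). Of 20 other interferon-gamma targets 19 could be tested, 18 had a fold above 1 and the median log2 fold change was 0.55. EdgeR called 0 of them at the adjusted threshold, with 15 at an unadjusted p under 0.05, all higher, and 2 called by DESeq2 and 0 by limma-voom. Over all genes tested, 4.64% were higher at an unadjusted p under 0.05 and 50.4% had a fold above 1. These targets were listed with results of the same comparison known. Gbp2 and Gbp4, interferon-induced GTPases, had log2 fold changes of 0.87 ± 0.16 and 0.70 ± 0.18 (SE), with edgeR adjusted p-values of 0.0970 and 0.240.

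Other parts of chemokine biology were also measured. Among 29 other chemokine genes 10 could be tested and edgeR called 0, with 0 called by DESeq2 or limma-voom. At an unadjusted p under 0.05 in edgeR there were 3 of the 10, against 9.24% of all genes tested. The median log2 fold change of the 10 was -0.10. Cxcl5, a neutrophil attractant, had 5, 8 and 4 counts in overexpression libraries 1 to 3, against 17, 30 and 16 counts in control libraries 1 to 3. Its log2 fold change was -1.90 ± 0.44 (SE, edgeR adjusted p = 0.212), opposite in sign to those of Cxcl9 and Cxcl10. Ccl17, a ligand of CCR4 whose gene lies next to Cx3cl1, had 1.34, 0.702 and 1.41 CPM in overexpression libraries 1 to 3. Control libraries 1 to 3 had 0.654, 0.452 and 0.426 CPM (edgeR adjusted p = 0.340).

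Of 12 other chemokine receptor genes 5 could be tested and edgeR called 0, with 0 at an unadjusted p under 0.05 and 0 called by DESeq2 or limma-voom. Ccr2, the receptor that brings monocytes into tissue, averaged 0.539 ± 0.0144 CPM in the overexpression group and 0.272 ± 0.198 CPM in control libraries (SD, n = 3 each; edgeR adjusted p = 0.542). Ccrl2 averaged 0.737 ± 0.233 CPM in the overexpression group and 0.614 ± 0.288 CPM in control libraries (SD, n = 3 each; edgeR adjusted p = 0.887).

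Of 17 genes of TNF, interleukin-1 and NF-kappaB signalling 15 could be tested and edgeR called 0. At an unadjusted p under 0.05 in edgeR there were 2 of the 15, against 9.24% of all genes tested. DESeq2 called 1 of the 15 and limma-voom 0, and the median log2 fold change was 0.037. Those with the smallest p were the interleukin-1 receptor gene Il1r1, at 21.8 ± 2.86 CPM in the overexpression group and 16.6 ± 1.51 CPM in control libraries (SD, n = 3 each; edgeR adjusted p = 0.269), and the leukocyte adhesion gene Vcam1. Vcam1 was at 44.3 ± 9.35 CPM in the overexpression group and 32.0 ± 1.88 CPM in control libraries (SD, n = 3 each; edgeR adjusted p = 0.419).

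Enzymes that cut chemokines were measured in a list of 8, of which edgeR called 0, with 0 called by DESeq2 or limma-voom. At an unadjusted p under 0.05 in edgeR there was 1 of the 8, against 9.24% of all genes tested. Adam10, which sheds Cx3cl1 and Cxcl16 from the membrane, averaged 112 ± 3.37 CPM in the overexpression group and 103 ± 1.43 CPM in control libraries (SD, n = 3 each; edgeR adjusted p = 0.519). Dpp4, which trims the N terminus of Cxcl10 and Cxcl12, averaged 2.28 ± 0.185 CPM in the overexpression group and 1.74 ± 0.240 CPM in control libraries (SD, n = 3 each; edgeR adjusted p = 0.588).

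Profiles over the 6 libraries were compared by the root mean square (RMS) difference of log2 CPM, each gene centred on its own mean. The 5 genes nearest Cxcl9 were Shox2, Gbp10, Tgtp1, Cxcl13 and Mx1, at RMS differences of 0.30, 0.38, 0.53, 0.69 and 0.78. The 5 nearest Cxcl10 were Gm4951, Mx1, Iigp1, Gbp10 and Ifi213, at 0.20, 0.41, 0.41, 0.51 and 0.54. Apart from Cxcl13 and Shox2, the genes on both lists that have an assigned role are interferon-induced GTPases or, for Ifi213, of the interferon-inducible p200 family. Shox2, a homeobox transcription factor known from the thalamus, had 16, 14 and 35 counts in overexpression libraries 1 to 3, against 3, 0 and 2 counts in control libraries 1 to 3. Gm4951 had 0.925, 2.92 and 3.77 CPM in overexpression libraries 1 to 3, against 0.436, 0.585 and 0.590 CPM in control libraries 1 to 3, so library 1 was low as it was for Cxcl10. Iigp1 had the same low library, with 4.5, 10.4 and 15.3 CPM in overexpression against 3.08, 2.37 and 3.71 CPM in control libraries. Because both profiles were chosen from this comparison, that the nearest genes are high in overexpression libraries was fixed by the choice. Gbp10, Tgtp1 and Ifi213 have near-identical relatives whose shared reads could have been split in counting.

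**Figure D3:**
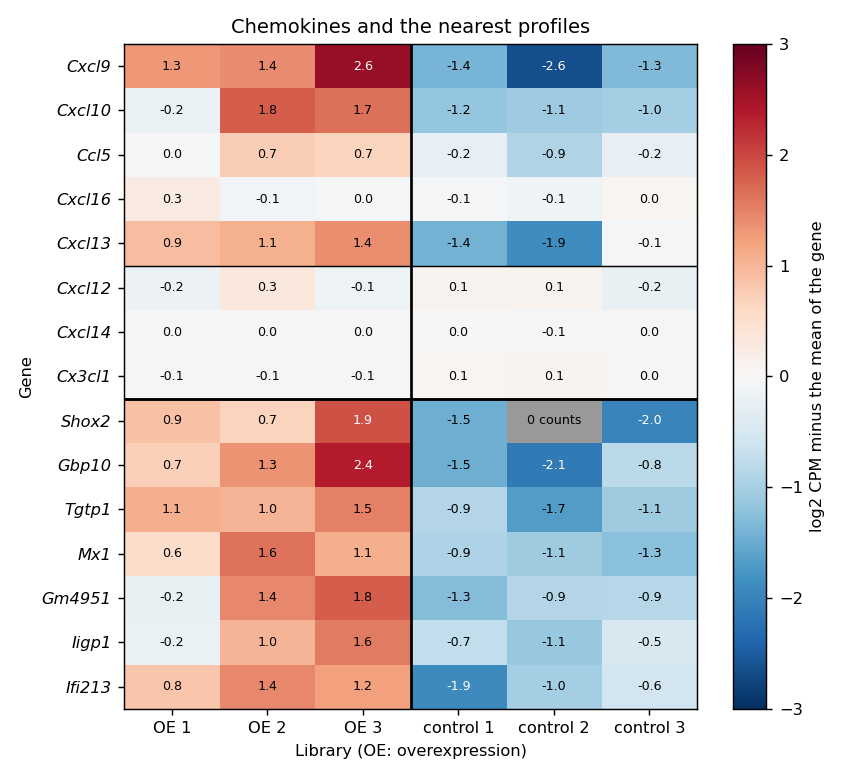
log2 CPM minus the gene's own mean, for the 8 chemokines (above the thick line) and the genes with the nearest profiles to Cxcl9 and Cxcl10, with overexpression libraries left of control libraries. Cxcl10, Gm4951 and Iigp1 are near their mean in overexpression library 1 and high in libraries 2 and 3; the grey cell is a library with 0 counts, left out of that gene's mean.

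Among the members, Cxcl9 and Cxcl13 were 0.69 apart by the same measure, Cxcl10 and Cxcl13 0.70 and Cxcl9 and Cxcl10 0.79. The inducible genes were not ordered alike in the overexpression libraries: Cxcl9 and Cxcl13 were highest in library 3, and Cxcl10 and Ccl5 in library 2. Cxcl14 and Cx3cl1 were the closest pair of all, at 0.073, and Cxcl16 was closer to Cxcl14, at 0.13, than to any inducible gene. Genes that vary little lie close by this measure whatever their pattern. Cx3cl1 was lower in each overexpression library, while Cxcl14 and Cxcl16 overlapped between the groups.

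**Figure D4:**
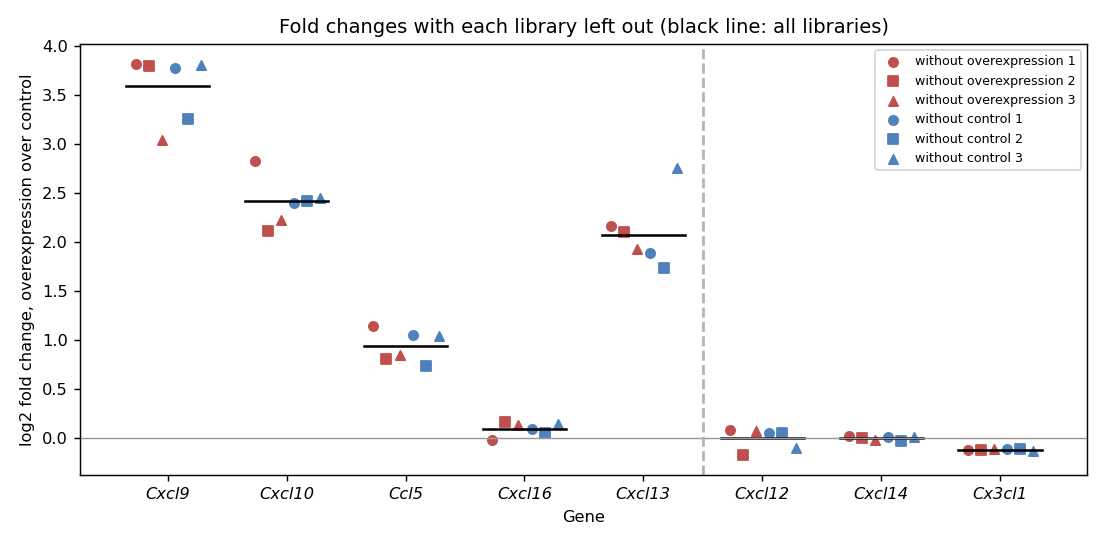
log2 fold change of each chemokine with each of the 6 libraries left out in turn (symbols) and with all libraries (black lines). Cxcl9, Cxcl10, Ccl5 and Cxcl13 stay above 0.7 in each of these fits, Cxcl16, Cxcl12 and Cxcl14 lie on both sides of 0, and Cx3cl1 lies between -0.13 and -0.11.

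Markers of the cells that make or answer chemokines were summed in each library. For 15 T cell and natural killer cell genes the sum was 3.25 to 5.13 CPM in the overexpression group and 3.18 to 3.48 CPM in control libraries. Only 2 of these genes had enough counts to be tested, and 0 of the 15 was at 0 in all libraries. The mean was higher in overexpression libraries for 13 of the 15 and lower for 2. Klrd1, with 4, 7 and 10 counts in overexpression against 1, 1 and 1 in control libraries, was the only one of the 15 whose groups did not overlap. Among genes tested, 50.4% had a fold above 1 and 7.07% had every overexpression library above every control library. No such shares were taken for genes below the filter, where most of the 15 lie, so nothing is read from these counts. For 6 B cell genes the sum was 6.90 to 14.7 CPM in the overexpression group and 5.93 to 6.82 CPM in control libraries. Most of this was Ighm, at 14.2, 5.96 and 6.19 CPM in overexpression libraries 1 to 3 and 5.67, 5.72 and 5.25 CPM in control libraries 1 to 3. The mean was higher in overexpression libraries for 4 of the 6 and lower for 2, Cd79b and Pax5. Border macrophage genes, 7 in number, summed to 13 to 17 CPM in the overexpression group and 11 to 12.1 CPM in control libraries. Not all members followed this sum: 5 of the 7 had a higher mean in overexpression libraries, and 2, Ms4a7 and Pf4, a lower one. The groups did not overlap for 2 of the higher genes, Mrc1 and Cd163, or for Ms4a7, which was lower in each overexpression library (edgeR adjusted p = 0.514). Over all genes tested, 7.07% had every overexpression library above every control library and 8.07% had every one below. Microglial genes, 8 in number, summed to 286 to 334 CPM in the overexpression group and 300 to 327 CPM in control libraries, so their summed levels overlapped. Among the 8, 3 had a higher and 5 a lower mean in overexpression libraries, and DESeq2 called 1. Fcrls was lower in each overexpression library, at 17.3, 17.8 and 16.7 CPM in overexpression libraries 1 to 3. Control libraries 1 to 3 had 22.9, 21.6 and 23.1 CPM of it (edgeR adjusted p = 0.117). Monocyte and dendritic cell genes, 8 in number with Xcr1 at 0 in all libraries, summed to 15.7 to 17.3 CPM in the overexpression group and 17.9 to 18.9 CPM in control libraries. Against the direction of this sum, 5 of the 8 had a higher mean in overexpression libraries, and 2, Itgax and Clec9a, a lower one. In that list Itgax averaged 1.2 ± 0.488 CPM in overexpression libraries and 4.07 ± 0.994 CPM in control libraries (SD, n = 3 each; edgeR adjusted p = 0.0862; DESeq2 called 1 gene of the list), while Ccr2 was higher as given above and Flt3 overlapped. Neutrophil genes, 4 in number with Ly6g at 0 in all libraries, summed to 0.239 to 0.877 CPM in the overexpression group and 0.0266 to 0.841 CPM in control libraries.

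Border tissue and vessels were also checked. Meningeal fibroblast genes, 8 in number, summed to 111 to 142 CPM in the overexpression group and 75.6 to 124 CPM in control libraries. A fold above 1 was seen for 8 of the 8, against 50.4% of all genes. In 4 of them every overexpression library was above every control library, against 7.07% of all genes tested. EdgeR called 0 of the 8, and DESeq2 called 2 and limma-voom 0. At an unadjusted p under 0.05 in edgeR 5 were higher, against 4.64% of all genes tested. Col1a2, a collagen gene, averaged 22.5 ± 3.26 CPM in overexpression libraries and 11.9 ± 2.94 CPM in control libraries (SD, n = 3 each; edgeR adjusted p = 0.215). Endothelial genes, 6 in number, summed to 224 to 234 CPM in the overexpression group and 201 to 240 CPM in control libraries. Astrocyte genes, 6 in number, summed to 5463 to 5983 CPM in the overexpression group and 5405 to 6027 CPM in control libraries, and 5 genes of red blood cells to 47.6 to 64.8 CPM in the overexpression group and 47.3 to 63.6 CPM in control libraries. The astrocyte sum is mostly Slc1a2, and Gfap, an astrocyte filament gene, was lower in each overexpression library, at 338, 328 and 401 CPM in overexpression libraries 1 to 3 and 465, 525 and 533 CPM in control libraries 1 to 3 (edgeR adjusted p = 0.0862; DESeq2 called 1 gene of the list). The part of the Klrd1, Ighm, Itgax, Fcrls, Gfap, border macrophage, meningeal and choroid plexus differences in the chemokine levels was not tested. The summed inducible chemokines were lowest among overexpression libraries in library 1. The choroid plexus, B cell, border macrophage, endothelial, astrocyte and meningeal fibroblast sums were the highest of that group there. The meningeal sum was nearly as high in library 2, at 141.6 against 141.9 CPM. The summed inducible chemokines were highest in library 3, where marker sums of immune cells and of neurons were also the highest of that group. In overexpression libraries 1 to 3 the T cell and natural killer cell sum was at 3.70, 3.25 and 5.13 CPM, and the microglial sum at 309, 286 and 334 CPM. The monocyte and dendritic cell sum was at 15.7, 16.1 and 17.3 CPM, and the hippocampal neuron sum at 1069, 1131 and 1245 CPM. Whether any of these go together was not tested. Without overexpression library 1 the inducible median log2 fold change was 2.17.

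**Figure D5:**
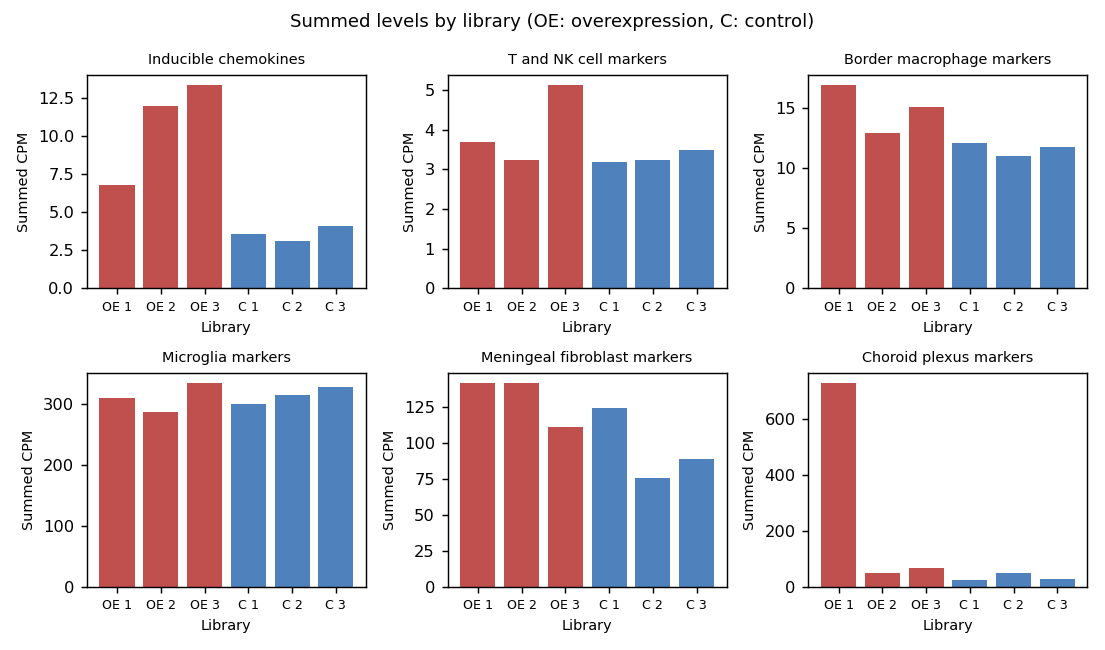
Summed CPM per library of the 5 inducible chemokines and of 5 lists of cell type markers, overexpression libraries (red) left of control libraries (blue). The inducible sum is lowest among overexpression libraries in library 1, at 6.77 CPM. Of the lists plotted, the choroid plexus sum, at 730 CPM, and the border macrophage and meningeal fibroblast sums are highest there. The inducible sum is highest in library 3, where the T and NK cell and microglial sums are also highest among overexpression libraries. Microglial sums lie between 286 and 334 CPM in all 6 libraries.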

How the data were processed

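The authors deposited 1 table of raw counts, whole numbers per gene identifier for each of the 6 libraries. It held 0 columns of other samples. Libraries were made from poly(A) RNA with dUTP strand marking, per the labels' protocols. The submitters' processing notes name Trimmomatic 0.36, STAR 2.7.10 and featureCounts 2.0.3, and both mm10 and GRCm39 as builds. Which build, annotation and strand setting gave the counts is not stated there.

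Symbols matched 51948 of 56941 identifiers. Counts were scaled with TMM factors, filtered with filterByExpr and tested in edgeR 4.0.16 (robust quasi-likelihood test, group as the only term; R 4.3.3). Benjamini-Hochberg adjustment ran over 19354 genes, with calls at 0.05. Standard errors were derived from the F statistic. The code was tested on simulated data. Alternatives were RLE and upper quartile factors, the Wald test of DESeq2 1.42.0, voom with sample weights in limma 3.58.1, no filter, at least 1 CPM in 3 libraries, a replicate block, and leaving out each library. Transcript lengths came from GENCODE M21, and RMS differences used a prior count of 2.

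The chemokines, the lists and the rule for named genes were chosen with earlier results of these data known. The rule takes the 8 chemokines, Negr1, receptors of the chemokines, Ifng, Ifnb1 and Irf1, and 2 genes named by it are not reported here. It adds, from each list, the called genes or else the 2 with the smallest p, and the 5 nearest profiles to Cxcl9 and Cxcl10. Art3 and Zmynd15 are named because they overlap a chemokine gene, and single marker genes and the genes under the other observations were named after their values were seen. Each library is a separate mouse according to the design text of the series. Replicates of a group differed beyond sampling noise (chi-square per degree of freedom 4.28 to 10.9). Limits set on counts of 0 cover counting error only.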

Additional observations from a re-analysis of the deposited data

How the results depend on the processing

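The median log2 fold change of the inducible chemokines was 1.73 to 2.45 with single libraries left out and 2.04 to 2.25 under the other alternatives; Ccl5 was not tested when 1 CPM in 3 libraries was required. The constitutive median was -0.12 to 0.023 with single libraries left out. The number of genes called, 5 higher and 4 lower, was 57 and 51 with DESeq2, 208 and 96 with no filter, 3 and 2 when 1 CPM in 3 libraries was required, and 2 higher with limma-voom. With single libraries left out it was 0 to 45 higher and 2 to 23 lower; edgeR called 0 higher without control library 2, where 772 higher genes had an unadjusted p under 0.05. The cause was not tested. Scaling by RLE or upper quartile factors changed neither count.

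Among the named genes, signs changed for 8. With single libraries left out, log2 fold changes ran from -0.17 to 0.089 for Cxcl12, -0.022 to 0.023 for Cxcl14, -0.012 to 0.16 for Cxcl16, -0.16 to 0.044 for Ackr3, -0.14 to 0.040 for Cxcr4, -0.070 to 0.020 for Cx3cr1, -0.11 to 0.22 for Irf1 and -0.035 to 0.62 for Ccrl2. Cxcl14 was at -0.0049 in limma-voom. Cxcl10 and Cxcl13 passed with DESeq2 (adjusted p = 0.0141 and 0.00691) and with no filter (0.00780 and 1.61e-05).

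Replicate numbers share only a label: deviations of same-numbered libraries correlated at 0.017 to 0.023 across genes, although each library correlated best with its own number. With the replicate number as a block the counts were 21 higher and 5 lower, and Cxcl12 was at -0.0039. Depth limits 19 of 39 genes taken by the naming rule (Negr1 aside), which had under 20 counts in at least 1 library; of the 8 chemokines described these are Cxcl9, Ccl5 and Cxcl13.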

Other observations

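Of 19 other chemokine genes below the filter on low counts, 15 had a higher mean in overexpression libraries, 3 a lower mean and 1, Cxcl3, had 0 counts throughout. The share of all genes below the filter with a higher mean was not taken, so nothing is read from this count. The genes below were named after their values were seen and were not tested. Cxcl1 was the only one of the 19 whose groups did not overlap. Among genes tested, 7.07% had every overexpression library above every control library and 8.07% had every one below. Cxcl11, the third ligand of CXCR3 beside Cxcl9 and Cxcl10, had 4, 7 and 0 counts in overexpression libraries 1 to 3, against 0, 3 and 0 counts in control libraries 1 to 3. Cxcl1, a neutrophil attractant, had 10, 10 and 7 counts in overexpression against 4, 4 and 3 counts in control libraries. Ccl22, which shares CCR4 with Ccl17, had 10, 6 and 9 counts in overexpression against 1, 2 and 6 counts in control libraries. Ccl4 had 1, 3 and 2 counts in overexpression against 8, 4 and 2 counts in control libraries, and Cxcl17 had 1, 2 and 5 counts in overexpression against 6, 1 and 1 counts in control libraries.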
